A study of Mus musculus with 35 samples.

Results

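Complement components known to be made by myeloid cells were measured in sorted mouse blood and tissue cells: C1qa, C1qb, C1qc, C3, Cfp and Cfb. The 6 genes were chosen by symbol, and their probe sets were read on all 35 arrays. In the probe annotation used here, 5 of the 6 had a named probe set, out of 18193 genes named, and these 5 had 8 probe sets of 45101 on the array. The level of C3 was not analysed here.

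All cells came from male C57BL/6J mice aged 8 weeks and were sorted by flow cytometry. A first set of 20 arrays held bone marrow SatM (an atypical monocyte with a segregated nucleus, tied by the labels to fibrosis) and inflammatory monocytes, with 2 arrays each. It also held 4 arrays each of SMP, the named progenitor of SatM, and of cMoP, the common monocyte progenitor, of which 2 each were titled WT, a title whose meaning the labels do not give. GMP (granulocyte-monocyte progenitors) and MDP (monocyte, macrophage and dendritic cell progenitors) had 1 array each, and spleen basophils, eosinophils and neutrophils 2 each. A tissue panel of 15 arrays held SatM sorted from 4 sites (spleen, marrow, blood, lung), M2-like resident macrophages from spleen and bone marrow, and a pair of lung resident macrophage sorts titled MP and F480-positive. It also held F480-negative Mac1+ Ly6C- cells that were negative for Msr1 and Ceacam1 (spleen, marrow, blood) or dull for both (marrow, lung), and the remaining Ly6C- monocytes (spleen, blood). Lung samples were titled BAL (bronchoalveolar lavage). Every cell type of the panel had 1 array per tissue, apart from lung macrophages with their 2 sorts. The 3 Msr1-negative Ceacam1-negative arrays, although labelled monocytes, had NK cell genes high and macrophage genes low, and the values stand with the comparison they enter. The labels do not say whether arrays of 1 group came from separate mice, so p-values measure only the spread between these samples, which may be technical.

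C1q is the recognition molecule of the classical complement pathway. Its A, B and C chains, from C1qa, C1qb and C1qc, assemble together, bind antibody complexes and dying cells, and in most tissues come largely from macrophages rather than from liver. Properdin, from Cfp, stabilises the convertase of the alternative pathway, and factor B, from Cfb, supplies the protease of that convertase. C3 is the central protein that both convertases cleave.

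The 3 C1q chain genes lie next to each other on chromosome 4, in the order C1qb, C1qc, C1qa, while Cfp lies on the X chromosome and Cfb on chromosome 17. Promoter windows from RefSeq (GRCm38.p6, from 250 bases before to 50 after the annotated start) are shown for C1qb and C1qc, neighbours whose products assemble, and for Cfp, which had a wider range of cell types. C1qb is at chr4:136886151-136886450, C1qc at chr4:136892865-136893164 and Cfp at chrX:20931506-20931805, all on the minus strand. Capitals mark GAGGAA, a core recognised by ETS factors such as PU.1, on either strand (the opposite strand reads TTCCTC).
C1qb promoter: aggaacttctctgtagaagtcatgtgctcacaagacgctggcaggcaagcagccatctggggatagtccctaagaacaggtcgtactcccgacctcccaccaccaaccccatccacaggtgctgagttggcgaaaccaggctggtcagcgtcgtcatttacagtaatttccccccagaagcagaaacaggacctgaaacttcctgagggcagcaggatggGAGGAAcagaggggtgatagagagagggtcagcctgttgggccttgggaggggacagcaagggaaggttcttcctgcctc
C1qc promoter: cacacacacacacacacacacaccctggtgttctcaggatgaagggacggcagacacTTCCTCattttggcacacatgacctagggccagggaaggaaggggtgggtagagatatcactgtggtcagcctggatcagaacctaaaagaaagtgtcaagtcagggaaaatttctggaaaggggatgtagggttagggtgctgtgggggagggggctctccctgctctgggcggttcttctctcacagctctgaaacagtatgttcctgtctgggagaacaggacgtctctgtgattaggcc
Cfp promoter: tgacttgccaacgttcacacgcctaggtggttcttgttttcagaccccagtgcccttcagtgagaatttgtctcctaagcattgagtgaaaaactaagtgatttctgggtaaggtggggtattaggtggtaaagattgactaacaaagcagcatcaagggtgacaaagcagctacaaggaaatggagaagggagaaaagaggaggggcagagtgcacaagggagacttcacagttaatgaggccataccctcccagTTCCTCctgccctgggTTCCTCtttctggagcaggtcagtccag

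GAGGAA was present in each of these windows: it began at position -30 of C1qb on the gene's strand, at -193 of C1qc on the opposite strand, and at 7 and 23 of Cfp on the opposite strand. Of 32851 promoter windows of the same length, 28.3% held it on either strand. Other motifs searched on both strands had no match in these 3 windows. The interferon-stimulated response element, GAAANNGAA, was present in 8.6% of all windows and the NF-kB motif, GGGANTTTC, in 1.1%. The C/EBP motif, TTGCNNAA, was present in 10.8%. The AP-1 motif, TGANTCA, was present in 7.8%. The TATA box, TATAAA, was present in 13.6%. The C3 window was also searched: it held no GAGGAA, and it had a C/EBP match at -45 and a TATA box at 15. C1qa and Cfb had no window in the source used. No match overlapped another.

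Values are the deposited log2 expression values, on which 1 unit is a factor of 2. All arrays shared a minimum of 2.30, called the floor here, where 43.6% to 48.3% of an array's probe sets lay. The upper quartile of the arrays ran from 6.09 to 6.56. A gene at the floor has only an upper bound there, and levels of different probe sets were not set against each other. In these bulk samples, fewer cells of a type and less RNA per cell cannot be told apart.

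All 3 C1q chain genes were high in M2-like resident macrophages, in lung and spleen SatM and in 1 of the 2 lung macrophage sorts. C1qa was at or near the floor in marrow progenitors, first-set monocytes and granulocytes. C1qa read 12.56 in marrow and 12.16 in spleen M2-like macrophages. It read 11.76 in F480-positive lung macrophages and 11.07 in lung SatM. Next came spleen SatM at 7.67, lung Msr1-dull Ceacam1-dull cells at 6.20 and marrow SatM of the panel at 4.65. These are the 7 highest arrays for C1qa, and 5 of them lay over the array's upper quartile. Every other array read 2.54 or less, including the MP lung macrophages at 2.45 and blood SatM at 2.35.

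C1qc, the C chain, had the same 6 arrays at the top in the same order. It read 12.82 in marrow and 12.15 in spleen M2-like macrophages, 11.74 in F480-positive lung macrophages, 10.85 in lung SatM, 7.58 in spleen SatM and 5.27 in lung Msr1-dull Ceacam1-dull cells. An eosinophil array at 5.18 and an SMP array at 4.81 followed, each apart from the other arrays of its cell type, and then marrow SatM of the panel at 3.89. Blood SatM read 2.48 and MP lung macrophages 2.87. Over the 35 arrays, the Pearson correlation of C1qa with C1qc was 0.98, a description over arrays of which most lie at the floor for C1qa.

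By cell type, C1qa was 12.36 ± 0.29 (SD, n = 2) in M2-like macrophages, 7.11 ± 6.58 (SD, n = 2) in lung macrophages, 6.44 ± 3.78 (SD, n = 4) in panel SatM and 4.27 ± 2.74 (SD, n = 2) in Msr1-dull Ceacam1-dull cells. The arrays of lung macrophages, SatM and Msr1-dull Ceacam1-dull cells overlapped, and their spread is one between tissues and sorts. In Msr1-negative Ceacam1-negative cells (n = 3) and other Ly6C- cells (n = 2), all arrays were at the floor of 2.30. In the first set, 18 of 20 arrays were at the floor, and a neutrophil array at 2.33 and an eosinophil array at 2.54 stood just above it.

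**Figure D1:**
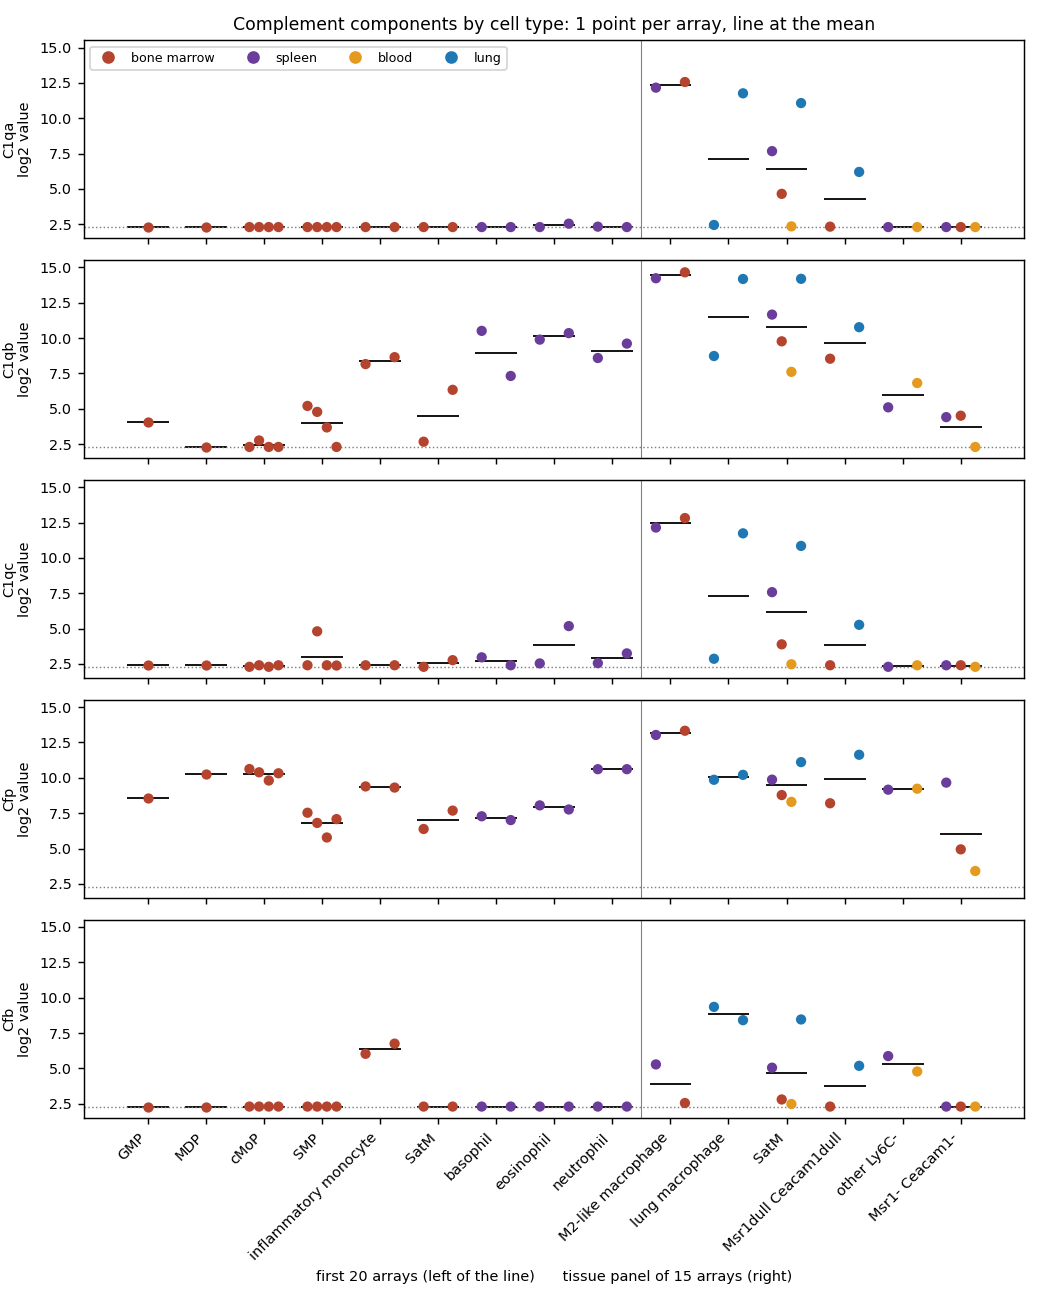
Log2 value of the main probe set of C1qa, C1qb, C1qc, Cfp and Cfb by cell type, with 1 point per array coloured by tissue, a line at the mean of the cell type, and a dotted line at the floor of 2.30. C1qa and C1qc stand above 10 in M2-like macrophages, 1 lung macrophage sort and lung SatM only, Cfp is above the floor on every array, and Cfb is above 8 on 3 lung arrays.

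C1qb, the B chain, had 3 probe sets, and they disagreed on many arrays where C1qa was at or near the floor, MP lung macrophages among them. The probe set 1417063_at followed C1qa (Pearson correlation 0.98 over 35 arrays). It read 12.31 and 11.79 in marrow and spleen M2-like macrophages, 12.23 in F480-positive lung macrophages, 11.83 in lung SatM, 7.84 in spleen SatM and 5.75 in marrow SatM. The probe set with the highest mean, 1437726_x_at, which stood for the gene in the tests, correlated with C1qa at 0.75. It was also high in these cells, at 14.65, 14.23, 14.18, 14.19, 11.66 and 9.77 in the same order.

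In granulocytes and inflammatory monocytes, where C1qa was at or near the floor, 1437726_x_at was well above it. The 2 inflammatory monocyte arrays read 8.16 and 8.65 with it and 2.43 and 2.30 with 1417063_at. It read 10.51 and 7.32 in basophils, 9.89 and 10.35 in eosinophils and 8.59 and 9.61 in neutrophils. With 1417063_at the highest of these granulocyte arrays read 4.53. Panel arrays low in C1qa also disagreed. With 1437726_x_at, MP lung macrophages read 8.73, blood SatM 7.61, marrow Msr1-dull Ceacam1-dull cells 8.54 and blood other Ly6C- cells 6.82. With 1417063_at they read 4.91, 2.31, 2.30 and 2.30. The remaining probe set, 1434366_x_at, tracked 1437726_x_at (correlation 0.99). Since both x_at probe sets stand apart from the rest of C1q in these cells, the called C1qb differences are given with both kinds of probe set. The cause of the disagreement was not tested.

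**Figure D2:**
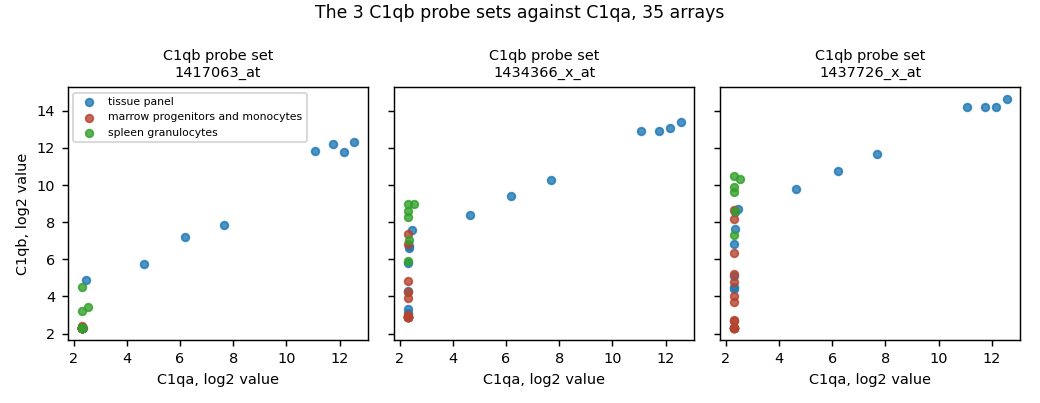
Log2 value of each of the 3 C1qb probe sets (vertical axis) against C1qa (horizontal axis) on 35 arrays, with tissue panel, marrow and granulocyte arrays in different colours. With 1417063_at, arrays at the C1qa floor stay below 5, while with both x_at probe sets granulocyte arrays at the C1qa floor reach 9 or more.

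Expression of resident macrophage genes was read on the same arrays from 12 genes, among them Vcam1, Mertk, Cd163 and the transcription factor Spic. All 12 were over the upper quartile in both M2-like arrays, 7 in spleen SatM, marrow SatM and MP lung macrophages, 5 in F480-positive lung macrophages and lung SatM, and 4 in blood SatM. Other arrays at or near the C1qa floor had some too. Spleen other Ly6C- cells had Adgre1 (9.57), Spic (7.24), Hmox1 (10.52), Mrc1 (7.24) and Fcgr1 (9.40) over it. Blood other Ly6C- cells had Adgre1, Hmox1, Mrc1 and Fcgr1, and marrow Msr1-dull Ceacam1-dull cells Adgre1, Vcam1, Slc40a1 and Hmox1. The mean of the 12 was 12.41 and 11.98 in marrow and spleen M2-like macrophages and ran from 2.58 to 7.02 on the other panel arrays. C1qa had a Pearson correlation of 0.73 with this mean over the 15 panel arrays, given as a description. MP lung macrophages (mean 6.77) and F480-positive lung macrophages (6.18) were close on this measure and far apart in C1qa.

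MP lung macrophages alone had all 7 alveolar macrophage genes over the upper quartile, with Siglecf at 11.35, Car4 at 12.05 and Marco at 11.33. F480-positive lung macrophages and lung SatM each had 4, with Siglecf at 6.00 and 7.26. Scgb1a1, a secretory gene of airway epithelium, read 13.43 in MP, 8.27 in lung SatM and 6.39 in F480-positive cells. Mertk, the receptor for apoptotic cells, read 9.85, 7.97 and 9.25 in the same arrays. The defining genes of red pulp and marrow macrophages, Spic and Cd5l, read 2.31 or less in all 3, so the C1q-high lung arrays lacked them. Lung SatM also differed from the other panel SatM arrays in nonclassical monocyte genes. Ace, Treml4 and Nr4a1 read 2.88, 4.13 and 3.89, against at least 8.24, 10.63 and 11.41. Cx3cr1, Itgal and Fcgr4 read 8.94, 9.43 and 9.10, against at least 9.86, 11.16 and 12.33. The part of other cells in the lung SatM array was not tested.

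In spleen, marrow and blood SatM of the panel, where C1qa read 7.67, 4.65 and 2.35, Spic read 9.31, 8.69 and 7.27, Cd5l 7.39, 3.43 and 2.30, and Mertk 4.26, 3.79 and 2.30. Vcam1 (6.64, 10.86 and 2.30) and Cd163 (4.45, 5.95 and 2.30) were highest in marrow. The mean of the 12 genes was 6.49, 7.02 and 4.54, so it was lowest in blood but did not follow C1qa between spleen and marrow. The part of other macrophages in the C1q values was not tested. The 2 marrow SatM arrays of the first set were at the floor for C1qa, and 4 of the 12 macrophage genes were over the upper quartile on each.

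**Figure D3:**
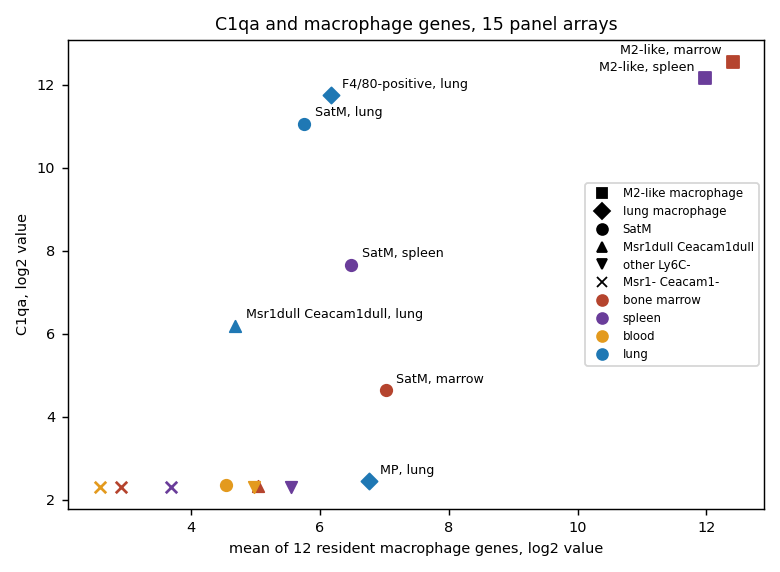
C1qa log2 value (vertical axis) against the mean log2 value of 12 resident macrophage genes (horizontal axis) on the 15 panel arrays, with shape for cell type and colour for tissue. M2-like macrophages lie at the upper right, F480-positive lung macrophages and lung SatM are high in C1qa at a middle marker level, and MP lung macrophages are near the floor at a similar marker level.

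For the tests, a gene was called at an adjusted p under 0.05 and a log2 difference of at least 1 (limma, Benjamini-Hochberg over all genes tested). Between M2-like macrophages and panel SatM, with tissue as a term, 0 of the 5 measured members were called, against 8.31% of 11734 genes. The arrays did not overlap between the groups for C1qa, C1qb, C1qc and Cfp, and the share of all genes without overlap was not computed. The fitted difference was 6.78 for C1qa (95% interval 1.14 to 12.42, adjusted p = 0.144), 7.09 for C1qc (1.54 to 12.63, adjusted p = 0.123) and 4.07 for C1qb (0.29 to 7.85, adjusted p = 0.186). Unadjusted p-values of these 3 were 0.0242, 0.0185 and 0.0379, and 2695 of the 11734 genes had one under 0.05. For Cfp the difference was 3.80 (0.95 to 6.64, unadjusted p = 0.0152, adjusted p = 0.109), and for Cfb it was -0.04 (adjusted p = 0.992). When all 35 arrays were fitted together, C1qa, C1qb, C1qc and Cfp were called (adjusted p from 0.00104 to 0.0164). That fit adds the 2 first-set SatM arrays, which were at the C1qa floor, and its share over all genes is not given here.

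Within single tissues the M2-like array exceeded the SatM array in every C1q chain. C1qa was higher by 4.49 in spleen and by 7.91 in marrow. C1qc was higher by 4.57 in spleen and by 8.93 in marrow. In lung, F480-positive macrophages and SatM were close, with a difference of 0.69 in C1qa and 0.89 in C1qc, and MP macrophages stood below SatM (-8.62 and -7.98). These are single arrays on each side, with no replicate check.

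Between lung macrophages and SatM, limma called 0 members, with 0 at an unadjusted p under 0.05, against 0.239% of all genes called. The direction of the C1qa difference depended on the lung sort. It was -3.36 (95% interval -10.12 to 3.41, adjusted p = 0.807) with both sorts, -8.01 (adjusted p = 0.0945) without the F480-positive array and 1.30 without the MP array. Between M2-like and lung macrophages, 0 members were called, against 1.95% of all genes. C1qa differed by 10.14 (1.83 to 18.44, adjusted p = 0.255), C1qc by 9.70 (adjusted p = 0.265), C1qb by 6.32 (adjusted p = 0.28), Cfp by 5.18 (adjusted p = 0.249) and Cfb by -1.23 (adjusted p = 0.672). Unadjusted p was under 0.05 for the first 4, and for 1706 of 11734 genes. Without the F480-positive lung array, which leaves MP alone in its group, the fitted difference was 14.79 for C1qa and 14.13 for C1qc. Over the 35 arrays C1qa ran only from 2.30 to 12.56 and C1qc from 2.30 to 12.82. No pair of arrays differed by that much, so these fitted values lie outside the data. M2-like and lung macrophages share no tissue, so this comparison rests on the additive tissue term.

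SatM and the Msr1-negative Ceacam1-negative cells differed in 1 member, C1qb, against 10.2% of all genes called. C1qb was 6.11 higher in SatM (95% interval 2.83 to 9.38, adjusted p = 0.0313), and SatM arrays read 7.61 to 14.19 against 2.30 to 4.51. With 1417063_at the difference was 3.11 (adjusted p = 0.333). The call was lost when any of 7 single arrays was left out, which were all 4 SatM arrays and all 3 marker-negative arrays (adjusted p from 0.0505 to 0.125). C1qa was at the floor in all 3 marker-negative arrays, and SatM read 7.67 in spleen, 4.65 in marrow and 2.35, near the floor, in blood. Lung SatM read 11.07 and had no marker-negative array of its tissue. With lung included, C1qa was at least 17.6-fold higher in SatM by the means, and it was not called (2.80, adjusted p = 0.457). C1qc (2.60, adjusted p = 0.486) and Cfb (1.40, adjusted p = 0.252) were not called either.

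The marker-negative cells were labelled monocytes, and all 3 arrays had 3 of 3 NK cell genes over the upper quartile, with Ncr1 at 9.73, 10.49 and 11.86 in spleen, marrow and blood. They had 0 or 1 of the 12 resident macrophage genes over it. Ncr1 was at the floor on every other panel array. The granzyme gene Gzma read 14.08 to 14.77 on them and at most 9.03 elsewhere in the panel. The part of these NK cell genes in the C1q difference was not tested.

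Cfp in this comparison differed between tissues. The marker-negative cells read 9.66 in spleen, 4.94 in marrow and 3.41 in blood, against 9.87, 8.78 and 8.30 for SatM. The spleen arrays were thus close, and marrow and blood were further apart. Genes of several cell types were also higher in the marker-negative spleen array than in those of marrow and blood. The dendritic cell genes Zbtb46 and Ccr7 read 11.38, 7.98 and 9.06 and 11.29, 3.65 and 2.30. The monocyte gene Csf1r read 9.49, 3.67 and 2.30, the macrophage gene Adgre1 8.17, 2.30 and 2.30, and the B cell gene Ms4a1 7.73, 2.30 and 2.30. Other monocyte and macrophage genes did not all follow. Ccr2 read 10.27, 11.69 and 11.34, and Cd163 read 2.91, 4.52 and 5.15. The monocyte genes F13a1, Vcan and Fn1 read 2.93 or less on all 3 arrays. The log2 of the summed level of 4 dendritic cell genes was 12.34, 8.10 and 9.10, with Xcr1 and Siglech at or near the floor on all 3. Over the 15 panel arrays, Cfp correlated at 0.22 with the mean of the dendritic cell genes and at 0.77 with that of the resident macrophage genes. The part of any such cells in the Cfp values was not tested. The fitted difference was 2.88 (0.41 to 5.34, adjusted p = 0.132), and without the marker-negative spleen array it was 4.49 (adjusted p = 0.00229). Between other Ly6C- cells and SatM, limma called 0 members, with 0 at an unadjusted p under 0.05, against 0.0682% of all genes called. The other Ly6C- cells of spleen and blood read 2.30 in C1qa, 9.16 and 9.23 in Cfp, and 5.87 and 4.78 in Cfb. The difference from SatM was -2.66 for C1qa (-8.41 to 3.09, adjusted p = 0.979), 0.18 for Cfp (-2.72 to 3.08, adjusted p = 1) and 1.42 for Cfb (-0.47 to 3.31, adjusted p = 0.802).

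**Figure D4:**
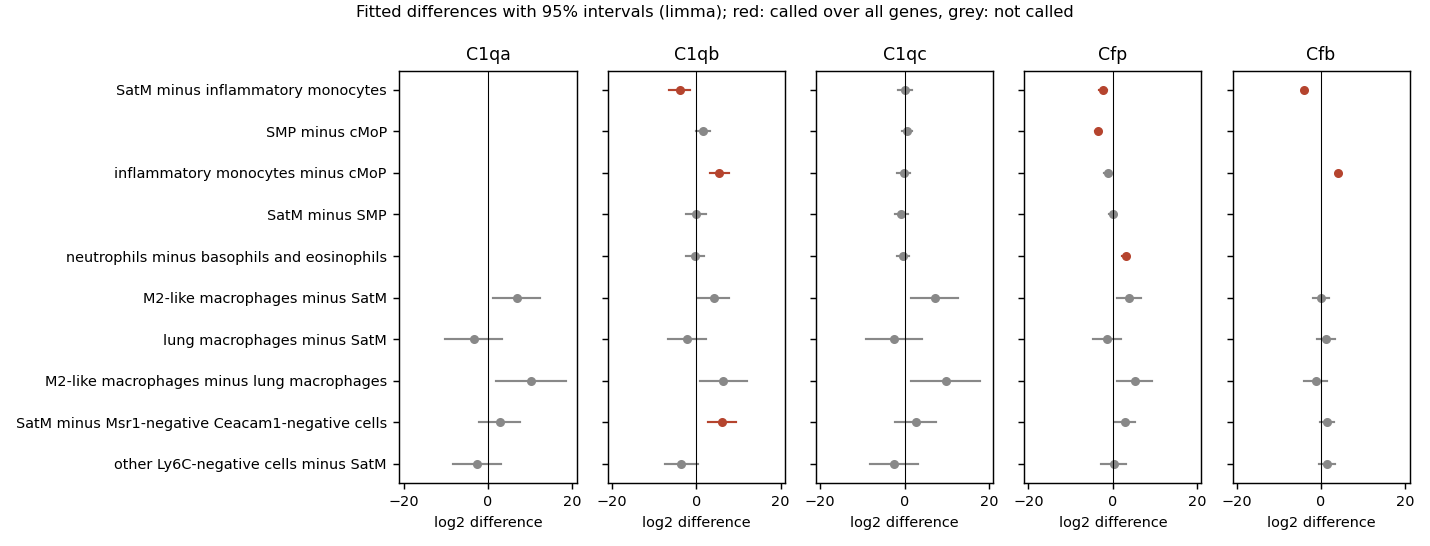
Fitted log2 difference (point) with its 95% interval (line) for each member in the 10 comparisons, red where called and grey where not. Members at the floor in both groups or not tested are left out, the Cfb calls follow from the filter on dim genes, some intervals are shorter than the point, and the widest intervals are those of C1qa and C1qc in the comparisons with lung macrophages.

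Cfp, the properdin gene, was the most widely detected member: 18 of 20 arrays of the first set and 13 of 15 of the panel were over the upper quartile. It was highest in M2-like macrophages, at 13.33 in marrow and 13.03 in spleen. Lung Msr1-dull Ceacam1-dull cells at 11.63 and lung SatM at 11.11 followed. The first of these also had the highest summed level of the 4 dendritic cell genes in the panel (13.11 on the log2 scale, with Zbtb46 at 12.28 and Ccr7 at 11.89). SatM read 9.87 in spleen, 8.78 in marrow and 8.30 in blood, marrow Msr1-dull Ceacam1-dull cells 8.20, and other Ly6C- cells 9.16 in spleen and 9.23 in blood. In the first set, spleen neutrophils read 10.61 on both arrays. cMoP at 10.29 ± 0.34 (SD, n = 4), MDP at 10.24 (n = 1) and lung macrophages at 10.04 ± 0.25 (SD, n = 2) lay within each other's spread. Inflammatory monocytes read 9.35 ± 0.06 (SD, n = 2) and GMP 8.60 (n = 1). Eosinophils at 7.91 ± 0.20, basophils at 7.14 ± 0.20 and first-set SatM at 7.03 ± 0.92 (SD, n = 2 each) were lower, and the last 2 overlapped. SMP were at 6.80 ± 0.74 (SD, n = 4).

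By the main probe set, SMP had less Cfp than cMoP, and first-set SatM less than inflammatory monocytes. The 4 SMP arrays read 7.53, 6.81, 5.78 and 7.08, and the 4 cMoP arrays 10.62, 10.39, 9.81 and 10.32. No SMP array reached a cMoP array. Cfp was the 1 member called between SMP and cMoP, where 35.5% of 12077 genes were called, with a difference of -3.49 (SE 0.32, adjusted p = 2.03e-06). C1qb (1.58, adjusted p = 0.132, and 0.00 with 1417063_at) and C1qc (0.65, adjusted p = 0.375) were not called, Cfb was at the floor in both groups, and C1qa was not tested since it failed the filter on dim genes in the first set.

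First-set SatM read 6.38 and 7.68 in Cfp, and inflammatory monocytes 9.39 and 9.31. The SatM arrays were both lower, with a difference of -2.32 (SE 0.45, adjusted p = 0.00516). The call was lost without SatM array 1 (-1.67, adjusted p = 0.0502), with the compared groups alone (-2.32, adjusted p = 0.0717), with all 35 arrays (-1.52, adjusted p = 0.339) and with the mean of the probe sets (-0.61, adjusted p = 0.232). A second Cfp probe set, 1447537_at, read 7.44 and 7.23 in SatM and 6.49 and 5.99 in inflammatory monocytes, the opposite direction (1.09, adjusted p = 0.157). For SMP against cMoP it gave -0.42 (adjusted p = 0.309). The probe sets correlated at 0.22 over 35 arrays, and 1447537_at reached at most 7.83 where 1452279_at reached 13.33, so the Cfp results hold for 1452279_at.

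From SMP to SatM 0 members were called, against 26.8% of all genes, by limma at the stated thresholds. No tested member had an unadjusted p under 0.05, and the Cfp difference was -0.07 (95% interval -0.98 to 0.84, adjusted p = 0.967). With 1447537_at, Cfp was called higher in SatM (1.86, adjusted p = 0.00453). From cMoP to inflammatory monocytes, the Cfp difference was -1.23 (-2.14 to -0.32, adjusted p = 0.0646). Neutrophils exceeded basophils and eosinophils in Cfp, with 10.61 and 10.61 against 7.28, 7.01, 8.05 and 7.76. Cfp was the 1 member called there, against 41% of all genes, with a difference of 3.08 (SE 0.39, adjusted p = 3.22e-05), and it was called with each alternative and with each array left out.

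Cfb, the factor B gene, was detected in few cells. Inflammatory monocytes read 6.03 and 6.75, and all of the other 18 arrays of the first set were at the floor. In the panel it was highest on 3 of the 4 lung arrays: 9.35 in MP macrophages, 8.46 in SatM and 8.41 in F480-positive macrophages. The fourth, of Msr1-dull Ceacam1-dull cells, read 5.18. Outside lung, other Ly6C- cells read 5.87 in spleen and 4.78 in blood, spleen M2-like macrophages 5.28 and spleen SatM 5.05. The remaining panel arrays read 2.80 or less. Both lung macrophage sorts were high in Cfb, while in C1qa they were far apart. Of 5 lung epithelium genes, Scgb1a1 read 13.43, 8.27, 6.39 and 5.57 in MP, SatM, F480-positive and Msr1-dull Ceacam1-dull lung cells and at most 2.52 elsewhere in the panel. Cldn18 read 6.35 in MP and was at the floor on the other 14 arrays, and Sftpb was at the floor on all 15. The mean of the 5 had a Pearson correlation of 0.75 with Cfb over the 15 panel arrays, given as a description, and the part of epithelial RNA in the Cfb values was not tested.

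Between first-set SatM and inflammatory monocytes, Cfp and C1qb were called lower, where 9.34% of all genes were called. Cfb also met the thresholds. Cfb was at the floor in SatM, at least 17.1-fold lower by the means. It passed the filter on dim genes only through the 2 inflammatory monocyte arrays, so its call is given as a description with no p. Without either array it was not tested. C1qb read 2.67 and 6.34 in SatM against 8.16 and 8.65, a difference of -3.90 (SE 1.14, adjusted p = 0.0465). With 1417063_at the difference was -0.07 (adjusted p = 1). The C1qb call was lost in 11 of 18 alternatives, among them without SatM array 1 (-2.07, adjusted p = 0.358), without inflammatory monocyte array 1 (-4.15, adjusted p = 0.162) or array 2 (-3.66, adjusted p = 0.234), and with the replicate block (-3.90, adjusted p = 0.0605). C1qc read 2.30 and 2.77 against 2.41 and 2.41 (0.13, adjusted p = 1).

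Between inflammatory monocytes and cMoP, C1qb was called higher in the monocytes, where 14.9% of all genes were called. Cfb also met the thresholds. Cfb was at least 17.1-fold higher than in cMoP by the means, all 4 of which were at the floor, and its call is again a description for the same reason. The C1qb difference was 5.43 (SE 1.06, adjusted p = 0.00333) with 1437726_x_at and 0.07 (adjusted p = 1) with 1417063_at. This comparison shares the inflammatory monocyte arrays with the one before it, and in both of them Cfb was not tested without either of these arrays.

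Other complement genes were read from lists of 50 genes, members included, of which 41 were named on the array, 22 were tested in the first set and 23 in the panel. Among receptors, C5ar1 and C3ar1, for the complement anaphylatoxins, were higher in SMP than in cMoP, by 6.75 (adjusted p = 1.23e-07) and 8.52 (adjusted p = 2.86e-09). Over all lists, 4 of 22 genes were higher and 4 lower there, about the share over all genes (35.5%), with a median difference of 0.02 against -0.09. The lower genes were Cfp, the ficolin Fcnb (-3.51), the receptor Cd93 (-3.16) and C1qbp (-3.35). From SMP to SatM, 2 of 22 were higher (Itgax, Itgam) and 3 lower, led by C3ar1 (-7.29, adjusted p = 1.72e-07), against 26.8% over all genes. SatM against inflammatory monocytes had 1 of 22 genes higher, Itgax, a chain of complement receptor integrins (5.89, adjusted p = 0.00262). It had 5 lower: Cfp, C1qb, C3ar1 (-2.43), Cd93 (-3.08) and, as a description, Cfb. Over all genes 9.34% were called. The median was 0.00 against -0.02 over all genes.

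Inflammatory monocytes against cMoP had 6 of 22 genes higher and 2 lower, against 14.9% over all genes. C5ar1 (5.10, adjusted p = 6.95e-05) and C3ar1 (3.65, adjusted p = 0.000205) were among the higher, with Cfb counted as a description. Neutrophils against basophils and eosinophils had 8 of 22 higher and 3 lower, against 41% over all genes, with a median of 0.62 against -0.05. Hc, which encodes complement component C5, read 4.95 and 5.90 in neutrophils and was at the floor on the other 18 arrays, so it passed the filter only through them and no p is given. Cfp and C5ar1 were higher, the latter by 3.46 (adjusted p = 0.000222). C3ar1 was lower (-2.36, adjusted p = 0.000899).

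In M2-like macrophages, the initiation genes C2 and Fcna, which are not members, were above SatM, and the C2 call is a description. C2, which supplies the protease of the classical convertase, read 9.68 in spleen and 7.95 in marrow M2-like macrophages and 2.30 on all 4 SatM arrays. It read at most 2.68 on the other 9 panel arrays, so it passed the filter only through the M2-like arrays and no p is given. Fcna, a ficolin of the lectin pathway, read 12.83 and 13.86 against 2.31 to 6.79 (8.61, adjusted p = 0.00447). C5ar1 (-4.87, adjusted p = 0.00832) and the integrin chain Itgam (-2.92, adjusted p = 0.0465, at the floor in both M2-like arrays) were lower. Over all lists 2 of 23 were higher, C2 included, and 2 lower, against 8.31% over all genes. The median was 0.78 against 0.03. Against lung macrophages C5ar1 was called lower (-5.73, adjusted p = 0.0469), and C2 met the thresholds as a description for the same reason. These were of 23 genes tested, against 1.95% over all genes. Lung macrophages against SatM and other Ly6C- cells against SatM had no called complement gene, and SatM against marker-negative cells had 3 of 23 higher, C1qb, C5ar1 (6.03) and Cd93 (5.49), against 10.2% over all genes.

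The genes whose pattern over the 35 arrays was most like the mean of C1qa, C1qb and C1qc, of 12869 genes, were Kcnk13 (Pearson r 0.885), Pdlim4 (0.867), Trim47 (0.858), Rab3il1 (0.848) and Plxna1 (0.838). In that mean C1qb stood by 1437726_x_at, which was apart from C1qa and C1qc in granulocytes and inflammatory monocytes. Those most like Cfp were Wdfy3 (0.826), Mitf (0.787) and Hdac9 (0.785). Those most like Cfb were Myof (0.969), Gamt (0.896) and 5730409E04Rik (0.896). Cfp and Cfb correlated at 0.38, C1qa and Cfp at 0.58, and C1qa and Cfb at 0.48. Arrays of 1 cell type and tissue are among these points, and many are at the floor for C1qa and Cfb, so the values describe these arrays and carry no p.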

How the data were processed

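Each sample of sorted cells gave total RNA for 1 Affymetrix Mouse430_2 array. The authors deposited log2 expression values per probe set in 1 table. Base 2 is an inference from the values, which run from 2.30 to 16.02, and the authors' processing is not given in the sources used here. Arrays have no read depth, so their number limits the precision. Of 45101 probe sets, 64 controls, 9160 without a symbol and 932 with several were left out, and 34945 were kept (34741 with an Entrez match in RefSeq, GRCm38.p6). For each gene, the probe set of highest mean on the 35 arrays was used. The 1 missing value was left missing, and no 2 arrays were identical.

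Models were fitted with limma 3.58.1 (lmFit, eBayes with trend) in R 4.3.3. The first held 20 arrays, with terms for cell type and the WT title (10 residual degrees of freedom). The second held the 15 panel arrays, with cell type and tissue as terms (6). A fitted difference can therefore differ from the plain one. Genes over their array's median on at least 2 arrays were tested. The fit was tested on simulated data. Tables and figures used Python 3.11.15, numpy 2.4.6, pandas 2.3.3 and matplotlib 3.10.9.

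The text names the members, called genes of 6 complement lists, marker genes that move with a result, and the genes most like the members (5 for C1q, 3 each for Cfp and Cfb). The complement genes printed are a choice of the called ones, made after their values were seen. The members and lists were chosen with earlier results of these data known. Alternatives were quantile normalisation, no filter or one at the 60th percentile, averaged probe sets, other probe sets, other arrays in the fit, eBayes without trend or robust, no fold threshold, no tissue or WT term, a replicate block and each array left out.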

Additional observations from a re-analysis of the deposited data

Results flagged for a closer look

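In 6 member and cell type pairs with 4 arrays each (cMoP and SMP), 2 had 1 array far from the other 3 by a rule on the gap. In both, the other 3 lay at or near the floor, where any raised array meets the rule, so no chance rate is given. C1qb read 2.76 on 1 cMoP array and 2.30 on the other 3, and C1qc read 4.81 on 1 SMP array and at most 2.41 on the rest.

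The difference between SatM and inflammatory monocytes was set against that between SMP and cMoP in limma's fit of the first set. For Cfb the 2 differences themselves differed by -4.09, which restates the inflammatory monocyte values and is given with no p: Cfb was at the floor in SatM, SMP and cMoP, and above it only in both inflammatory monocyte arrays of the 12 arrays compared, through which alone it passed the filter. For C1qb they differed by -5.48 (adjusted p = 0.0126), with the probe set 1437726_x_at. Over all genes, 2688 of 12077 were called in this contrast. With 1417063_at the 2 differences were -0.07 and 0.00, so this result holds for 1437726_x_at. The Cfp differences, both negative, were not called different (1.16, adjusted p = 0.154).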

How the results depend on the processing

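The count of called members, Cfb included, was within 1.5 times its main value in 166 of 193 alternatives, lower in 21 and higher in 6. This rule takes a move from 3 to 2 as no change, so it does not show the stability of single members. For SatM against inflammatory monocytes, the C1qb call was lost in 11 of 18 alternatives. The Cfp call there was lost in 4 of 18 and its direction reversed in 1. SatM against inflammatory monocytes went from 3 to 1 with the mean of probe sets, the compared groups alone or all 35 arrays, and ran from 1 to 3 with 1 array left out. SMP against cMoP went from 1 to 0 with 1447537_at for Cfp and to 2 with the compared groups alone. Inflammatory monocytes against cMoP went from 2 to 1 with 1417063_at for C1qb or all 35 arrays, and ran from 1 to 2 with 1 array left out. SatM against SMP went from 0 to 1 with 1447537_at. With all 35 arrays, M2-like macrophages went from 0 to 4 against SatM and from 0 to 3 against lung macrophages. The shares over all genes in that fit are not given here. Leaving out an M2-like or lung macrophage array leaves a single array in that group, so no count is given for it. SatM against marker-negative cells went from 1 to 0 without the filter, with the mean of probe sets, with 1417063_at or with the compared groups alone, to 2 with all 35 arrays, and ran from 0 to 1 with 1 array left out. The cause was not tested. With 1447537_at, Cfp reversed to 1.09 in SatM against inflammatory monocytes and to 1.86 against SMP. The replicate block ended the C1qb call between SatM and inflammatory monocytes (-3.90, adjusted p = 0.0605) and no other member's call. Same-numbered arrays correlated from -0.10 to 0.23 in their deviations, so the numbers were not taken to pair samples. Quantile normalisation moved no member's level by more than 0.15. The compared groups alone could not be fitted for M2-like against lung macrophages. Values at the floor limit C1qa and Cfb: differences there are bounds.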

Other observations

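C6, a terminal complement component, read 12.09 in spleen M2-like macrophages and was at the floor on the other 14 panel arrays. Vsig4, a complement receptor of macrophages, read 8.40 in marrow and 2.59 in spleen M2-like macrophages and was at the floor elsewhere in the panel. Fcnb, a ficolin, read 12.58 in marrow SatM and 10.81 in marrow Msr1-dull Ceacam1-dull cells, against 7.65 in spleen SatM and 2.70 in blood SatM. Neutrophil and progenitor genes were also high on these marrow arrays, with Camp at 14.69 and 14.79, Elane at 11.73 and 12.36 and Mpo at 13.49 and 14.11, and their part in Fcnb was not tested. C1ra, a protease gene of the C1 complex, read 7.13, 7.10 and 6.52 in MP lung macrophages, F480-positive lung macrophages and lung SatM. C3ar1 read 11.89 and 11.46 in F480-positive lung macrophages and lung SatM and 4.38 in MP lung macrophages. These are single arrays with no replicate check, and the genes were chosen after their values were seen.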
